A study of Mus musculus with 18 samples.

Results

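Interferon-stimulated genes were followed in 3T3-F442A adipocytes, fat-storing cells obtained in culture from a mouse preadipocyte line, given growth hormone (GH) or kept as controls. The members were 34 listed genes, matched to the array by symbol, each read from the brightest probe set that carries no other gene's symbol. Of these, 29 could be measured, among 8251 genes with a probe set of their own. Stat2 and Bst2 had no probe set by symbol, and Tgtp1, Ifi203 and Psme2 were found only on probe sets that carry several symbols, so no value is given for these 5.

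RNA was measured on 18 Affymetrix MG_U74Av2 arrays. The groups were cells given GH and control cells at 30 min, 4 h and 48 h, with 3 arrays in each of the 6 groups and 1 array of every group in each of 3 numbered experiments. All groups are the same clonal line, and the labels used here give neither the GH dose nor the medium nor what the controls received. Groups follow the sample titles. For 3 arrays the longer description names another group than the title, namely GH 30 min of experiment 1, GH 4 h of experiment 3 and control 48 h of experiment 3, and results that rest on them were also computed without them, in both fits.

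Signals are in array units on a linear scale. Each array was already scaled before deposit, with a trimmed mean of 500.3 on every array, so all values are relative to the bulk of the transcripts. The array medians still ran from 149.7 to 182.7 units, a range of 0.25 on the log2 scale. The 19 yeast and bacterial control probe sets never exceeded 105.6 units, and Nmi, Mx1 and Cxcl10 had every group mean below that limit. Adipocyte markers were abundant, Adipoq at 31381 and Lpl at 22472 units on average. Of 10 macrophage and leukocyte markers 5 had a group mean above 105.6 units, among them Cd14 and Cd68. Cd14 averaged 2773 units, and Cd68 averaged 256, with 167.1 to 386.7 on single arrays. Ptprc, Itgam, Mrc1 and Adgre1 stayed below 105.6 units on every array. Differences were tested with limma on log2(signal + 25), two-sided, and p-values were adjusted over all 12422 probe sets that are not manufacturer controls, with a threshold of 0.05. A second fit with the experiment as a block compares arrays within experiments, and its value is given where it changes a call.

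Interferons are secreted proteins that warn cells of infection. Type I interferons act through a receptor that starts the kinases Jak1 and Tyk2, which activate STAT proteins such as Stat2. Stat2 and Irf9 are parts of a complex that binds the interferon-stimulated response element (ISRE) in the promoters of antiviral genes. Interferon gamma acts through Jak1 and Jak2, and its targets, many with a gamma-activated site (GAS) in their promoters, include Irf1, the immunity-related and guanylate-binding GTPases and the immunoproteasome. The GH receptor also signals through Jak2 and STAT proteins. Many members are also kept at a low level in unstimulated cells by small amounts of interferon that the cells make themselves.

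RefSeq promoter windows of 300 bases, 250 before and 50 after a transcript's start (assembly GRCm38.p6), were found for 22 of the 29 members. They were searched on both strands for the ISRE core, which is GAAA, any 2 bases and GAAA again, and for the GAS sequence TTCNNNGAA. The ISRE core was present in 11 of the 22 genes and in 36.7% of their 30 windows, against 3.44% of all 32851 windows. The GAS sequence was present in 8 of the 22 genes and in 26.7% of their windows, against 8.30% of all windows. These matches describe the letters of the windows and are no evidence of binding. The 6 windows printed here, read 5′ to 3′ on the gene's own strand with the matched motifs in capitals, belong to members on which the results below turn. Isg15 (chr4:156200769-156201068, minus strand) holds 3 overlapping ISRE cores, Ifit3 (chr19:34583279-34583578, plus strand) holds 2, and Gbp3 (chr3:142559794-142560093, plus strand) holds 2 that overlap, those of Ifit3 and Gbp3 on the other strand, as TTTC, any 2 bases and TTTC.
Isg15: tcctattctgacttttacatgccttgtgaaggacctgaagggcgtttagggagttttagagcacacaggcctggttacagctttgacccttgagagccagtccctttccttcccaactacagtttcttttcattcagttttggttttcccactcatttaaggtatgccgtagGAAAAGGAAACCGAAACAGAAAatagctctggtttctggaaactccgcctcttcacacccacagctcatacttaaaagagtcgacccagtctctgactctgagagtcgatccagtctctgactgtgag
Ifit3: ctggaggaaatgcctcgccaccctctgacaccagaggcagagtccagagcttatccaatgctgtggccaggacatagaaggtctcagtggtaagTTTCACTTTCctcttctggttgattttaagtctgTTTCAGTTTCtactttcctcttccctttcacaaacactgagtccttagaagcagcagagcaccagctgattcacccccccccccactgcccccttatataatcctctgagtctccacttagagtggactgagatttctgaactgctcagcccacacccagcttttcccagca
Gbp3: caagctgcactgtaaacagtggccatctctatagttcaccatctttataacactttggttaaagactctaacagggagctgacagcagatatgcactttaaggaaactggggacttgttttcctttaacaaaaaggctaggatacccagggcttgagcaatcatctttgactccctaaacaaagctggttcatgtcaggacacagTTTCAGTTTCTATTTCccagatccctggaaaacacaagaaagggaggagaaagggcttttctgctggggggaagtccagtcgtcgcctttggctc
Irf1 (chr11:53769764-53770063, plus strand) and Ifi35 (chr11:101448162-101448461, plus strand) hold a GAS sequence and no ISRE core, and Igtp (chr11:58199306-58199605, plus strand) holds both next to each other.
Irf1: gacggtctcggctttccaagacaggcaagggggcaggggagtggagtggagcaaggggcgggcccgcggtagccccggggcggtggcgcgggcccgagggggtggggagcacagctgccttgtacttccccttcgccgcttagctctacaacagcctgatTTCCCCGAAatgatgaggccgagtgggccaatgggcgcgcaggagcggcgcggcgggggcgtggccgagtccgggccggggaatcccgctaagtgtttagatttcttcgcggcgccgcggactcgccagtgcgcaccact
Ifi35: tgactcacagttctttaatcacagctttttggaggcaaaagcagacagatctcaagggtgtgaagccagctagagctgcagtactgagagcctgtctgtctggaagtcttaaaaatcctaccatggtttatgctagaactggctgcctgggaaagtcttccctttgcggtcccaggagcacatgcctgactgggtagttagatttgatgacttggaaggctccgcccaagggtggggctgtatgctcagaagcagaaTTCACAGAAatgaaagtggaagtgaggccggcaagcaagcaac
Igtp: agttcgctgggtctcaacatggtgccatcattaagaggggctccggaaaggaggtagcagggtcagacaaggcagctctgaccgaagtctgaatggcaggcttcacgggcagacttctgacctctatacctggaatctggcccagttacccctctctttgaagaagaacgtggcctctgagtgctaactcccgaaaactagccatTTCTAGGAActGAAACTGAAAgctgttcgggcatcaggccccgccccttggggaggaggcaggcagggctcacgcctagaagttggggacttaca

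Most members had signals above background in untreated cells. In the 9 control arrays 24 of the 29 members lay above the median probe set, which had 163 units. Ly6e, a surface protein held by a lipid anchor, was highest with 4426 ± 1119 units (SD, n = 9), followed by the guanylate-binding GTPase Gbp2 with 2908 ± 1298 and the DNA-binding p200 protein Ifi204 with 2259 ± 933. Levels of different genes depend on their probes, so this order describes signals and not amounts of RNA. Ly6e and Ifi204 were read from probe sets of a kind that can pick up related transcripts. At the low end, Rsad2 (viperin, which makes an antiviral nucleotide) averaged 78.2 ± 73.8 units, and the chemokine Cxcl10 averaged 51.4 ± 56.1. The SDs of Rsad2 and Cxcl10 are close to their means, and the heat map of all members shows where that spread comes from.

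**Figure D1:**
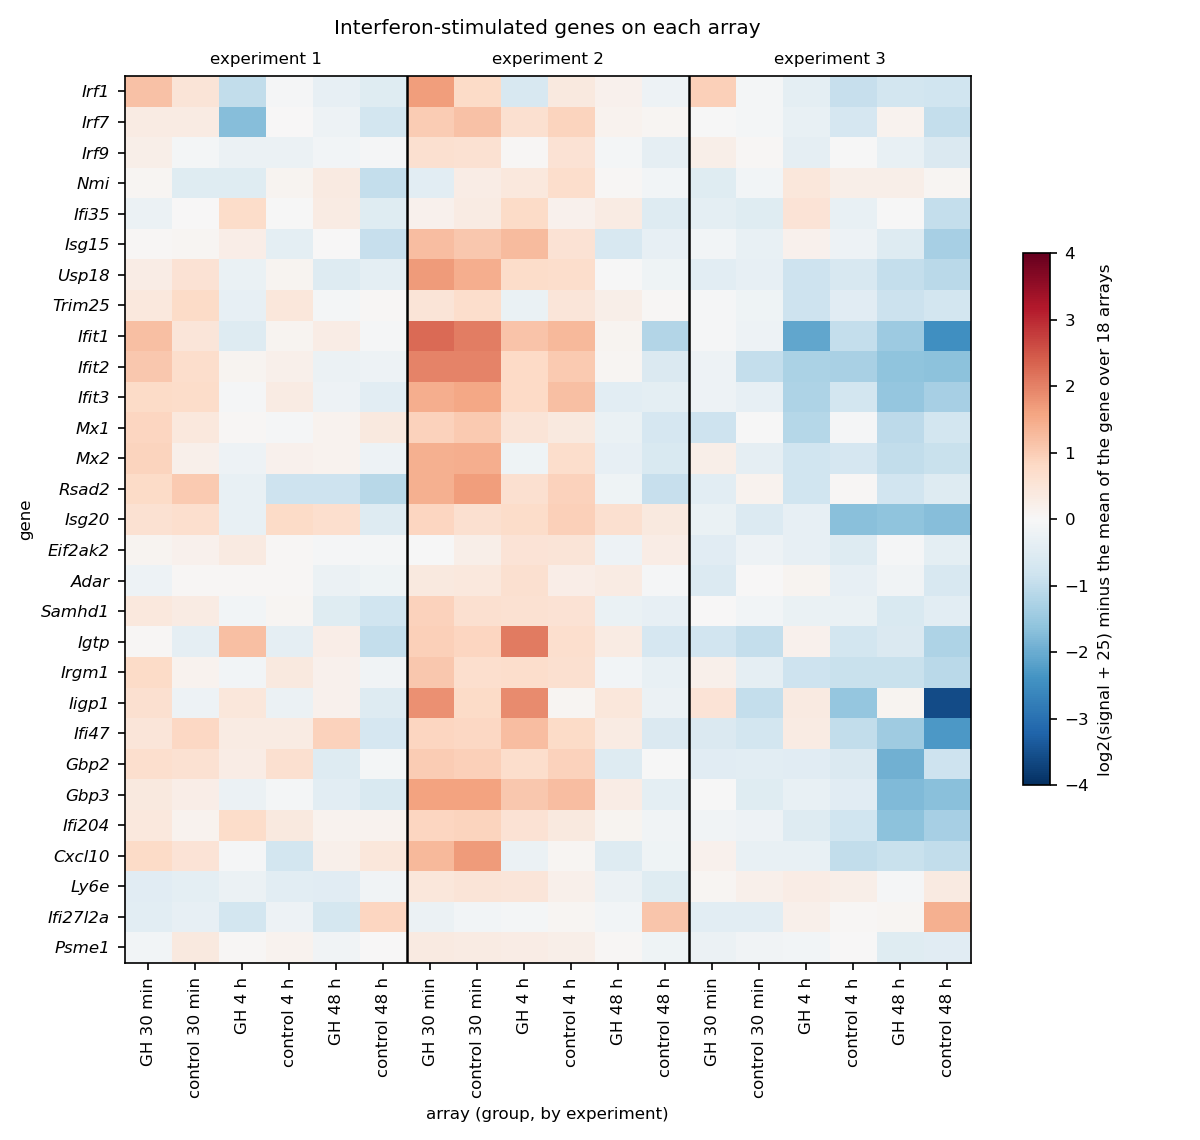
Level of the 29 members (rows) on the 18 arrays (columns, grouped by experiment), as log2(signal + 25) minus the gene's mean over all arrays. Most rows are red in experiment 2 and blue in experiment 3, and within each experiment the 30 min arrays are redder than the 48 h arrays.

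The members differed most between the 3 experiments. With the group in the model, an F test across experiments called 26 of the 29 members (89.7%), against 14.8% of all probe sets. On the log2 scale 27 of the 29 members had their highest mean in experiment 2, against 21.3% of all probe sets (25 of them also called, against 3.63%), and 25 had their lowest mean in experiment 3, against 30.7%. The median range between the 3 experiment means was 0.98 on the log2 scale for the members and 0.31 for all probe sets.

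The antiviral Ifit proteins, which bind foreign RNA and hold back its translation, differed widely, and Ifit2 and Ifit1 had the highest ratios of all members between experiments 2 and 3. Ifit2 signals had a lowest, median and highest array of 115.5, 162 and 325.7 units in experiment 1, of 86.5, 294.6 and 638.9 in experiment 2, and of 28.2, 43.9 and 120.8 in experiment 3. The mean in experiment 2 was 6.41 times that in experiment 3, and the adjusted p of the F test was 7.66e-05. Ifit3 signals were 616, 939 and 1454.9 units in experiment 1 (lowest, median, highest), 623.8, 1721 and 2528 in experiment 2, and 271, 420 and 728.5 in experiment 3, a ratio of means of 3.39 between experiments 2 and 3 (adjusted p = 9.45e-05). Ifit1 had a ratio of 5.19 (adjusted p = 0.00131). For each of these genes the arrays of experiments 2 and 3 overlapped in range, since time within an experiment moved the signals too, but within each of the 6 groups the array of experiment 3 was the lowest of the 3.

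The guanylate-binding GTPases, which attack the vacuoles of intracellular pathogens, followed the same order. Gbp2 had 1687, 3357 and 3902.6 units in experiment 1, 1686.6, 4307 and 4889 in experiment 2, and 617, 1674 and 1780.4 in experiment 3 (lowest, median and highest array), and the lowest adjusted p of all members (3.18e-05). Gbp3 had 501.4, 702 and 1028.1 units in experiment 1, 592.8, 1793 and 2455.2 in experiment 2, and 211.2, 564 and 775.1 in experiment 3 (adjusted p = 0.000123). Usp18, the protease that removes Isg15 from proteins and dampens the type I receptor, had 183.9, 257 and 412 units in experiment 1, 236.5, 464.5 and 938 in experiment 2, and 114.2, 153 and 212.9 in experiment 3 (adjusted p = 0.000196). Gbp3 and Usp18 were lowest in experiment 3 and highest in experiment 2 in all 6 groups, and Gbp2 was lowest in experiment 3 in all 6 groups.

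**Figure D2:**
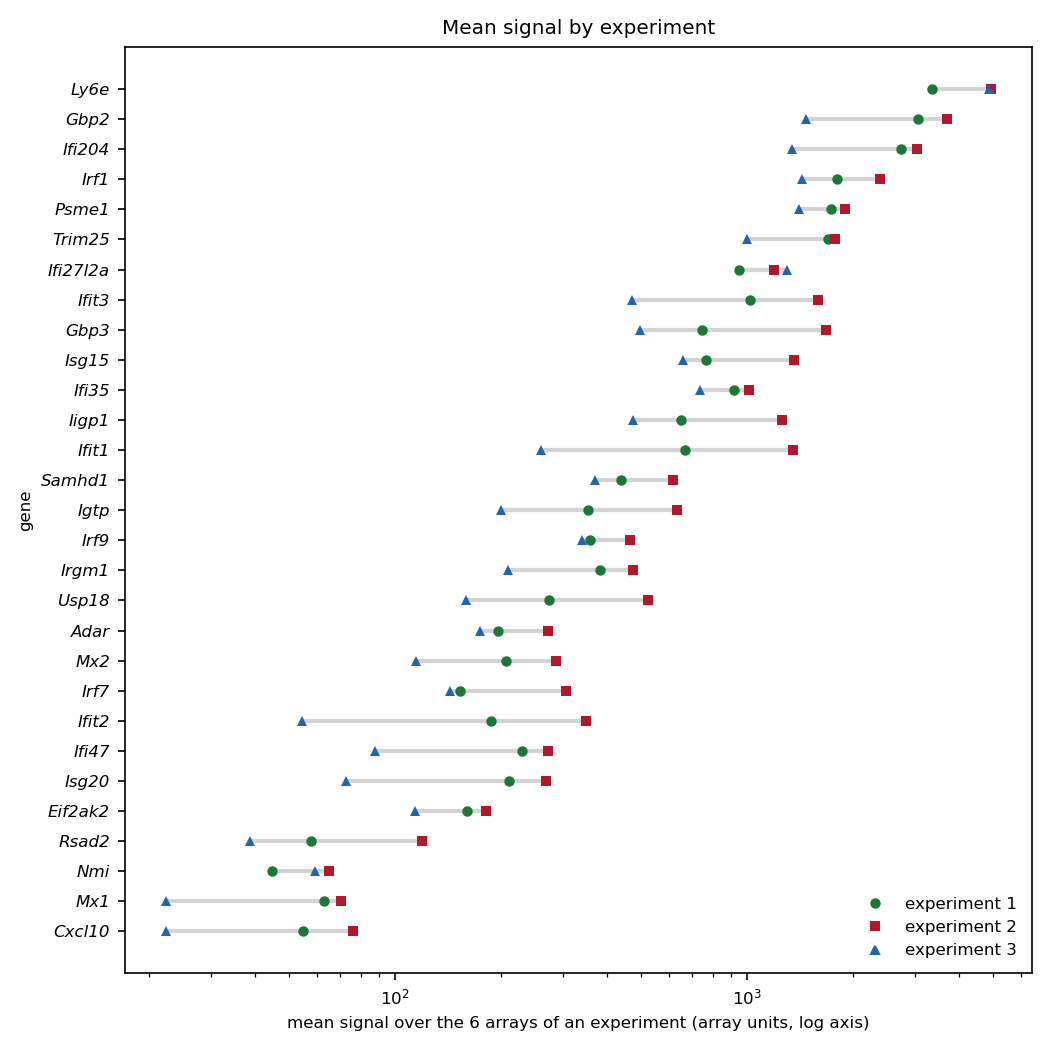
Mean signal of each member over the 6 arrays of experiment 1 (circles), experiment 2 (squares) and experiment 3 (triangles), in array units on a log axis, with genes ordered by their level. For most genes the square lies at the right end and the triangle at the left end, while Ly6e, Ifi27l2a and Nmi break that order.

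The order held in treated and untreated cells alike. Taking each member in each of the 6 groups, experiment 2 was the highest of the 3 arrays in 131 of 174 cases (75.3%), against 26.8% over all probe sets, and experiment 3 was the lowest in 142 (81.6%), against 32.6%. In the GH groups these were 64 and 70 of 87 cases, and in the control groups 67 and 72 of 87. For 16 members experiment 3 was the lowest in all 6 groups. The F test was not passed by the transcription factor Irf9 (adjusted p = 0.0919), the Irf-associated protein Nmi (0.344) and Ifi27l2a, a small membrane protein induced by type I interferon (0.0851). Of these, Irf9 still had its highest mean in experiment 2 and its lowest in experiment 3. Irf7 passed with its lowest log2 mean in experiment 1, 7.33, against 7.35 in experiment 3. Ly6e passed (0.0442) with its lowest mean in experiment 1, at 3355 ± 315 units, against 4931 ± 1313 in experiment 2 and 4874 ± 499 in experiment 3 (SD, n = 6 each). As a description over the 18 arrays, the median correlation between 2 members after removal of the group means was 0.72 over 406 pairs. The arrays are shared by all pairs. Nmi, Ly6e and Ifi27l2a had mean correlations of 0.11, 0.05 and -0.04 with the other members.

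Every adjusted call of the F test needed experiment 3. Without experiment 1 it called 22 members, against 7.87% of all probe sets, and without experiment 2 it called 15, against 8.1%. Without experiment 3 limma called 0 members, against 0.00805% of all probe sets, and 15 members (51.7%) had an unadjusted p below 0.05, against 14% of all.

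Markers of cell type also differed between experiments. The summed signal of 8 preadipocyte and fibroblast markers ranged from 12890 to 23854 units in experiment 1, from 13240 to 20765 in experiment 2 and from 26999 to 42907 in experiment 3, and 5 of the 8, among them Dlk1, Thy1 and Col1a2, passed the F test with the highest mean in experiment 3. The sum of 8 adipocyte markers was 79902 to 99433, 66491 to 102098 and 69830 to 85326 units in experiments 1, 2 and 3. Of these 8, 3 passed the F test, all 3 lowest in experiment 3. The sum of 10 macrophage and leukocyte markers was 3088 to 5087, 2771 to 4803 and 1758 to 3597 units, most of it Cd14. Cd14 was the 1 of these 10 that passed, against 14.8% of all probe sets. Only 4 of the 10 had their lowest mean in experiment 3. Ptprc, Itgam, Mrc1 and Adgre1 were below 105.6 units throughout, while Cd68 was above that limit on every array. The part of these shifts in the members' spread was not tested, and in bulk RNA fewer cells of a type and less RNA per cell cannot be told apart.

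Other genes of the interferon pathway can be set against the 14.8% of all probe sets that passed. Of 8 measured receptors, kinases and STATs 7 passed the F test across experiments, all 7 lowest in experiment 3. Ifnar2, a chain of the type I receptor, averaged 442.3 ± 66.9, 436 ± 124 and 232 ± 62.0 units in experiments 1, 2 and 3 (adjusted p by limma = 0.00382; SD, n = 6 each). Of 28 other interferon-induced genes 16 passed, 11 of them highest in experiment 2 and 13 lowest in experiment 3. Gbp7 averaged 1016 ± 343, 1289 ± 405 and 544 ± 384 units (adjusted p = 0.00709), and the chemokine Ccl5 327 ± 107, 1100 ± 1060 and 167 ± 91.9 units (adjusted p = 0.00805; SD, n = 6 each). Of 11 genes of antigen processing 8 passed, 6 of them lowest in experiment 3. None of the 9 interferon genes with a probe set passed, and their means were not lowest in experiment 3 for any of them, but only 3 of the 9 were above 105.6 units in any group, so interferon RNA itself was at the limit of measurement. Of the sensors and adaptors 2 of 4 passed, both lowest in experiment 3. The other interferon regulatory factors (0 of 4) and the inhibitors of the receptors (0 of 6) did not pass either.

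Untreated cells had lower levels of most members late in the time course. In control cells 28 of the 29 members were lower at 48 h than at 30 min, with a median log2 change of -0.83, against a median of 0.05 over all probe sets. The same was seen within every experiment, with 26, 27 and 26 of 29 members lower in experiments 1, 2 and 3 and medians of -0.53, -0.99 and -0.68. In 3 of 3 experiments 24 members were lower, against 10.8% of all probe sets. By 4 h 26 members were lower than at 30 min (median -0.26), and from there to 48 h 27 were lower (median -0.62). Cells given GH also had lower values late, with a median of -0.76 and 20 members lower at 48 h than at 30 min in 3 of 3 experiments, against 12.3% of all probe sets.

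**Figure D3:**
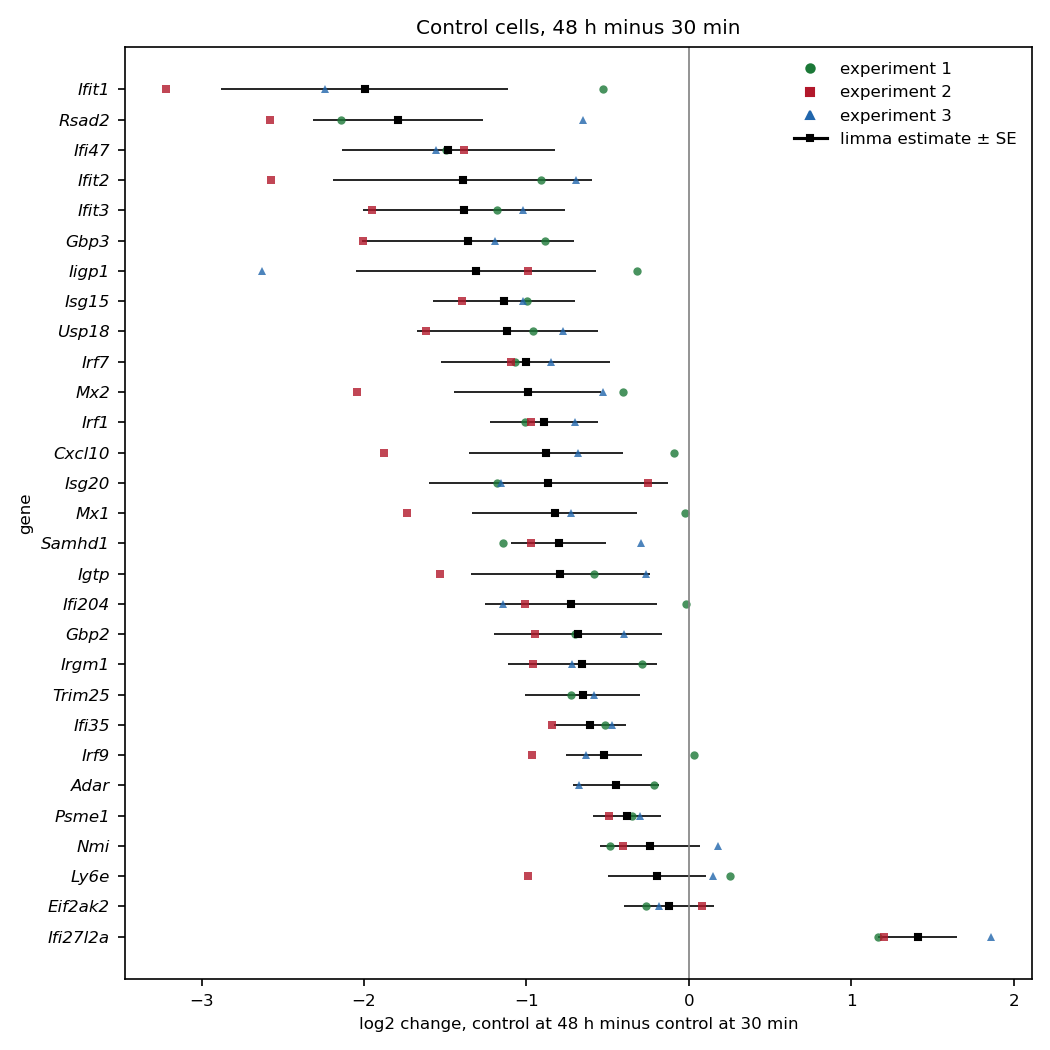
Log2 change of each member in control cells, 48 h minus 30 min, with the change within each experiment (coloured points) and the limma estimate with its SE (black squares and lines). All estimates lie left of 0 except that of Ifi27l2a, and experiment 2 often lies farthest to the left.

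No single decrease passed the unblocked limma test in control cells, where 0 members were called lower at 48 h and 11 had an unadjusted p below 0.05 in either direction (37.9%, against 5.46% of all probe sets). Over all probe sets 0.129% were called in either direction. For 4 h against 30 min and for 48 h against 4 h limma called 0 members in either fit, with 1 and 4 members at an unadjusted p below 0.05 without the block (3.45% and 13.8%, against 2.99% and 4.12% of all probe sets) and 5 and 19 with it (17.2% and 65.5%, against 4.36% and 7.63%). Over all probe sets 0.0886% and 0% were called in these comparisons without the block, and 0.0966% and 0.00805% with it. With the experiment as a block 26 had an unadjusted p below 0.05 (89.7%, against 9.5% of all probe sets), and Ifit3, Gbp3 and Usp18 fell, against 0.266% of all probe sets called lower and 0.338% in either direction. Ifit3 had 616, 635.4 and 316.7 units at 48 h in experiments 1, 2 and 3, against 1429.4, 2528 and 668.6 units at 30 min, and the ranges did not overlap. Its log2 change was -1.38 ± 0.62 (SE), with an adjusted p of 0.895 by limma without the block and 0.0134 with it.

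Gbp3 had 501.4, 592.8 and 228 units at 48 h, against 947.4, 2455.2 and 553.2 units at 30 min (-1.36 ± 0.65, adjusted p by limma 0.908, with the block 0.0269). Usp18 had 199.4, 236.5 and 114.2 units at 48 h, against 412, 779.5 and 212.9 units at 30 min (-1.12 ± 0.56, adjusted p by limma 0.926, with the block 0.0436). Both were lower at 48 h in every experiment, while the ranges of the groups overlapped. These calls were close to the threshold: with 1 array or 1 experiment left out of the blocked fit, Ifit3 was called in 2 of 9 cases and Gbp3 and Usp18 in 1 of 9 each, with adjusted p-values up to 0.283, 0.565 and 0.453. Without the 3 arrays with conflicting labels their blocked adjusted p-values were 0.0342, 0.0656 and 0.0743, and that fit called 5 members, against 0.475% of all probe sets: Ifi27l2a higher and Ifit3, Irf1, Samhd1 and Gbp2 lower at 48 h.

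Of the 5 members with the largest differences, the 4 with lower values did not pass in either fit. Ifit1 had 498.7, 218.1 and 75.4 units at 48 h, against 730.2, 2241 and 448.9 units at 30 min (-2.0 ± 0.88, adjusted p by limma 0.895, with the block 0.0782). Rsad2 had 12.5, 17.7 and 31.4 units at 48 h, all below the 105.6 units of the control probe sets, against 140.7, 230.3 and 63.5 units at 30 min (-1.79 ± 0.52, adjusted p 0.608, with the block 0.0782). The immunity-related GTPase Ifi47 had 92.7, 101.2 and 13.2 units at 48 h, again all below 105.6 units, against 306.8, 304.9 and 87.6 units at 30 min (-1.48 ± 0.66, adjusted p 0.895, with the block 0.0612). Ifit2 had 118.4, 86.5 and 28.2 units at 48 h, against 244.7, 638.9 and 61.1 units at 30 min (-1.39 ± 0.80, adjusted p 0.968, with the block 0.0514). The differences of Rsad2, Ifi47 and Ifit2 have their lower end at or near background. Only for Rsad2 among these 4 did every 48 h array lie below every 30 min array. Over all members this was so for 7 (Irf1, Ifi35, Isg15, Ifit3, Rsad2, Adar and Samhd1), against 3.94% of all probe sets.

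Ifi27l2a went the other way. It had 1913.5, 2265.7 and 2852 units in control cells at 48 h, against 838.8, 969.8 and 768.3 units at 30 min, with a log2 change of 1.41 ± 0.24 and an adjusted p of 0.0271 by limma (0.00369 with the block), against 0.0242% of all probe sets called higher, and it was the 1 member whose 48 h arrays all lay above the 30 min arrays, against 6.49% of all probe sets. At 4 h it had 899.9, 1096.5 and 1090.1 units, within reach of the 30 min level. The unblocked call ended when any of the 6 arrays of the comparison or any experiment was left out (adjusted p 0.0503 to 0.770), and without the 3 arrays with conflicting labels the change was 1.26 with an adjusted p of 0.184 (0.0268 with the block). With the block it was kept in 7 of 9 cases and ended without experiment 1 (0.0742) or experiment 2 (0.263).

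Marker sums moved with time in control cells too. The preadipocyte and fibroblast sum was 20765 to 34708 units at 48 h, against 14098 to 27981 units at 30 min. The macrophage and leukocyte sum, most of it Cd14, was 1758 to 3088 units at 48 h, against 2723 to 4298 units at 30 min. The list as a whole went the other way. Of its 10 markers 8 were higher at 48 h, against 57.2% of all probe sets, with a median log2 change of 0.31. The part of these marker shifts in the members' lower values was not tested.

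No member was called after 30 min of GH: none passed limma in either fit (0 of 29, against 0.0403% of all probe sets without the block and 0.0805% with it), with 1 member at an unadjusted p below 0.05 without the block and 3 with it (3.45% and 10.3%, against 2.45% and 3.61% of all probe sets). In GH cells 16 members were higher and 13 lower than in controls, with a median log2 change of 0.04, against -0.03 over all probe sets. Without the control array of experiment 2 the number higher was 25, and without the GH array of experiment 2 or the control array of experiment 3 it was 5. Without the 3 arrays with conflicting labels 17 members were higher, the median was 0.08, and no member passed in either fit.

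Irf1, a transcription factor gene with a GAS sequence in its promoter window, had 3649, 5209 and 3123.9 units in GH cells at 30 min in experiments 1, 2 and 3, against 2338.4, 2758.6 and 1520.6 units in control cells. It was higher in 3 of 3 experiments and was the only member whose 30 min groups did not overlap, which is 3.45% of the members, against 2.32% of all probe sets with every GH array above every control array. No member had every GH array below, against 4.51%. The log2 change was 0.86 ± 0.33, with an adjusted p by limma of 0.9995 and of 0.673 with the block, so it did not pass. Socs3 and Socs1, inhibitors of cytokine receptors that are early targets of STAT proteins, did rise on the same arrays. Socs3 had 4530.3, 6210 and 5031.8 units in GH cells, against 313.1, 416.3 and 218.6 units in control cells (3.98 ± 0.48, adjusted p by limma = 0.00234, and 0.0184 without the 3 arrays with conflicting labels). Socs1 had 528.3, 791.3 and 723.9 units in GH cells, against 238.8, 249.8 and 235.6 units in control cells (1.39 ± 0.22, adjusted p by limma = 0.0246, and 0.00818 without those arrays). These were the 2 of 6 measured inhibitors that passed.

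Among the GTPases, Iigp1 had 951.6, 2196.6 and 902.1 units in GH cells at 30 min, against 519.2, 1050.7 and 300.1 units in control cells (1.13 ± 0.74, adjusted p by limma = 0.9995). Irgm1, which regulates the other immunity-related GTPases, had 562.6, 703.1 and 379.5 units in GH cells, against 357.1, 524.5 and 243.9 units in control cells (0.54 ± 0.46, 0.9995). Both were higher with GH in 3 of 3 experiments, and the ranges of the groups overlapped because the experiments lay so far apart. The largest decreases were small: Rsad2 had 111.1, 193 and 35.2 units in GH cells, against 140.7, 230.3 and 63.5 units in control cells (-0.36 ± 0.52). The RNA-editing enzyme gene Adar had 176.9, 279.4 and 136.6 units in GH cells, against 216.3, 285.8 and 213.1 units in control cells (-0.28 ± 0.26). A second Adar probe set, with every group mean below 105.6 units, had a log2 change of 0.47. Nmi, near background, had 57.6, 33.5 and 31.4 units in GH cells, against 31.2, 71.9 and 47.9 units in control cells (-0.18 ± 0.31).

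The other members spread narrowly around 0 at 30 min. Log2 changes of the antiviral effectors ran from -0.36 for Rsad2 to 0.42 for Mx2, a dynamin-like GTPase, with 6 of 10 higher. Isg15, the ubiquitin-like protein that is attached to other proteins in the interferon response, had 846.8, 1969.8 and 758 units in GH cells, against 878.3, 1763.8 and 662.9 units in control cells (0.10 ± 0.44). Among the 3 genes of Isg15 conjugation 1 was higher, among the 5 transcription factors and partners 2, and among the 6 GTPases 5, none passing.

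At 4 h of GH the median log2 change of the members was -0.10, against 0.02 over all probe sets, with 11 members higher and 18 lower. That balance depended on single arrays: without the GH 4 h array of experiment 3, which is also among those with conflicting labels, 22 members were higher and the median was 0.18, and without the control 4 h array of experiment 2 these were 20 and 0.18. Limma called 0 members without the block, against 0.121% of all probe sets. At an unadjusted p below 0.05 there were 2 members without the block and 4 with it (6.90% and 13.8%, against 6.86% and 10.3% of all probe sets), and by adjusted p with the block Ifi35 and Igtp rose, against 0.25% of all probe sets called higher and 0.362% called in either direction.

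Ifi35, a leucine-zipper protein that binds Nmi, had 1422.3, 1446.5 and 1236.8 units in GH cells at 4 h, against 830.9, 965.8 and 683 units in control cells. The groups did not overlap, and the log2 change was 0.72 ± 0.22, higher in 3 of 3 experiments (adjusted p by limma 0.389, with the block 0.0401). Igtp, an immunity-related GTPase with both motifs in its promoter window, had 769.8, 1431.2 and 358.3 units in GH cells at 4 h, against 241.3, 517.8 and 183.3 units in control cells. Its groups overlapped, since experiment 3 was low in both, but within each experiment GH was higher (1.29 ± 0.55, adjusted p by limma 0.667, with the block 0.0426). With 1 array or 1 experiment left out of the blocked fit both calls held only without the GH 4 h array of experiment 3 (0.0469 and 0.0165), and adjusted p-values otherwise reached 0.561 and 0.548. Without the 3 arrays with conflicting labels the blocked values were 0.0663 for Ifi35 and 0.0280 for Igtp.

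That blocked fit without the 3 arrays called 3 members at 4 h, against 1.55% of all probe sets, namely Igtp and, with lower values, Irf1 and Trim25. Irf1 had 812.9, 1031.3 and 1226.6 units in GH cells at 4 h, against 1578.4, 2110.4 and 837.5 units in control cells, so experiment 3, whose GH array is among the 3, ran against the others. Its log2 change was -0.47 ± 0.33 with all arrays (adjusted p by limma 0.897, with the block 0.519) and -0.87 ± 0.16 in the blocked fit without the 3 arrays (adjusted p 0.0297). Trim25 had an adjusted p of 0.0426 in that fit.

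Iigp1 had 832.2, 2322.9 and 780.4 units in GH cells at 4 h, against 509.1, 640.6 and 191.1 units in control cells (1.47 ± 0.74, adjusted p by limma 0.777, with the block 0.254). Iigp1 and Ifi35 were the 2 members (6.90%) with every GH array above every control array, close to the 6.26% of all probe sets, and no member had every GH array below, against 5.13%. Ifit1 had 351.7, 1181.6 and 103.2 units in GH cells, against 563.4, 1311.7 and 255.1 units in control cells (-0.64 ± 0.88, adjusted p 0.992). Trim25, a ligase for ubiquitin and Isg15 that activates the RNA sensor RIG-I, had 1113.1, 1176.6 and 784.3 units in GH cells, against 1946.5, 1994 and 1024.6 units in control cells (-0.64 ± 0.35, adjusted p 0.812, with the block 0.0744). Both were lower in 3 of 3 experiments without passing. Irf7, the factor that amplifies type I interferon production, had 37.3, 289 and 140.2 units in GH cells, against 181, 348 and 102.8 units in control cells. Experiment 3 thus went against experiments 1 and 2 (-0.53 ± 0.52, adjusted p 0.966). A second Irf7 probe set, of the kind that can read related transcripts, had a log2 change of 0.08 at 4 h.

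By role, 1 of the 5 transcription factors and partners was higher at 4 h (Ifi35), 3 of the 10 antiviral effectors and 3 of the 6 GTPases. Isg15 had 989, 2018.4 and 936.4 units in GH cells, against 615.5, 1231.6 and 712.6 units in control cells, higher in every experiment without passing (0.58 ± 0.44, adjusted p by limma 0.910, with the block 0.521). Irf9, which pairs with Stat2, had 316.6, 388.8 and 287.2 units in GH cells, against 318.7, 572.2 and 376 units in control cells, lower in every experiment without passing (-0.30 ± 0.23, adjusted p 0.926). Mx2 and Ifit3 had log2 changes of -0.45 and -0.43, also lower in 3 of 3 experiments.

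**Figure D4:**
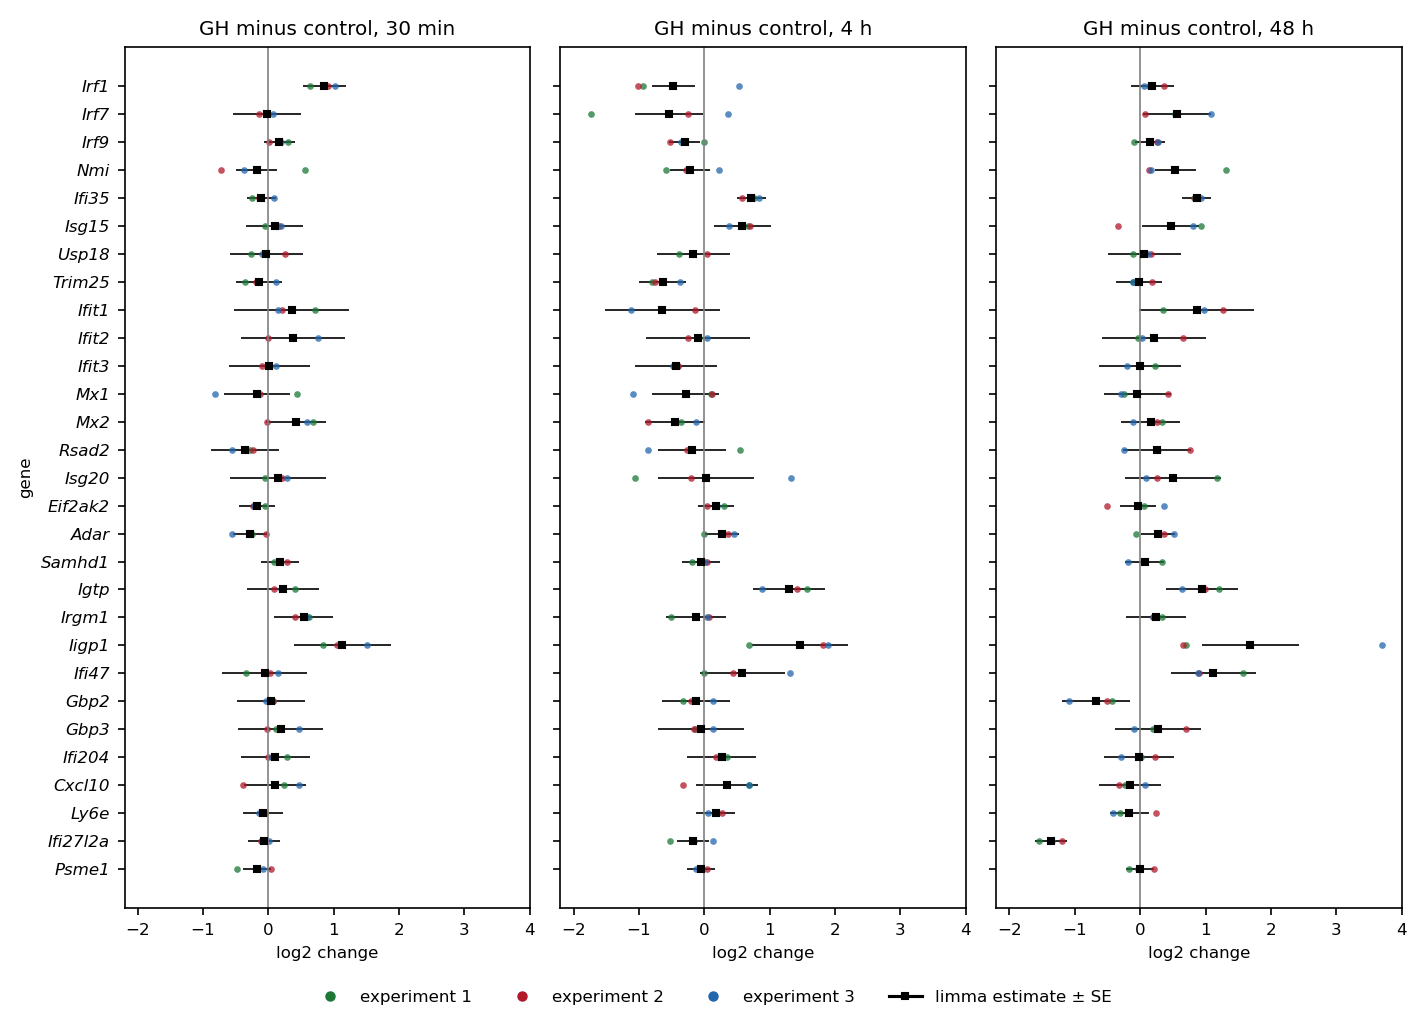
Log2 change of each member, GH minus control, at 30 min, 4 h and 48 h, with the change within each experiment (coloured points) and the limma estimate with its SE (black squares and lines). Irf1 stands right of 0 at 30 min, Ifi35 and Igtp at 4 h and 48 h, Iigp1 at all 3 times, and Ifi27l2a far left of 0 at 48 h, while most other members scatter around 0.

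After 48 h of GH 21 members were higher and 8 lower than in controls, with a median log2 change of 0.19, against 0.02 over all probe sets. Without the control 48 h array of experiment 3, whose description conflicts with its title, the median was 0.0039. In the unblocked limma fit 1 member fell and none rose (3, or 10.3%, at an unadjusted p below 0.05, against 6.50% of all probe sets), against 0.0886% of all probe sets called lower and 0.338% called in either direction. With the block 1 member also rose (6, or 20.7%, at an unadjusted p below 0.05, against 10.3% of all probe sets), against 0.692% of all probe sets called higher, 0.58% called lower and 1.27% called in either direction.

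The member that fell was Ifi27l2a, with 635.3, 974.6 and 1100 units in GH cells at 48 h, against 1913.5, 2265.7 and 2852 units in control cells. The groups were far apart and the decrease was seen in 3 of 3 experiments, with a log2 change of -1.37 ± 0.24 and an adjusted p by limma of 0.0229 (0.00337 with the block). Its signals in GH cells at 30 min were 781.3, 890.5 and 777.9 units, so the 48 h level with GH was near the early level while control cells had risen. The comparison shares its 3 control 48 h arrays with the comparison of control times above. The unblocked call was kept without the control array of experiment 1 (adjusted p = 0.0429) or the GH array of experiment 3 (0.0154), and ended without any of the other 4 arrays (0.0665 to 0.108), without any experiment (up to 0.453) and without the 3 arrays with conflicting labels (0.0874, with the block 0.0156). With the block it ended without experiment 1 (0.138) or experiment 2 (0.198).

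Ifi35 rose at 48 h by the blocked fit. It had 1072.3, 1061.3 and 840.7 units in GH cells, against 594.5, 581 and 428.1 units in control cells, with no overlap and a log2 change of 0.87 ± 0.22 (adjusted p by limma 0.153, with the block 0.00669). The call held when any 1 array was left out and ended without experiment 1 (0.305), 2 (0.224) or 3 (0.066), and it was kept without the 3 arrays with conflicting labels (0.0207). That fit called 2 members at 48 h, Ifi27l2a and Ifi35, against 1.14% of all probe sets. Igtp had 385.1, 407.6 and 204.5 units in GH cells, against 153.2, 192.8 and 122.6 units in control cells, also apart (0.94 ± 0.55, adjusted p 0.873, with the block 0.097).

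Iigp1 had 682.6, 830.1 and 654.7 units in GH cells at 48 h, against 411.9, 516.1 and 27.6 units in control cells (1.68 ± 0.74, adjusted p 0.718, with the block 0.147). The differences within experiments were 0.70, 0.66 and 3.69 on the log2 scale, the widest in experiment 3, whose control array was below the background limit. A second Iigp1 probe set, of the kind that can read related transcripts, had log2 changes of 0.53, 1.19 and 0.92 at 30 min, 4 h and 48 h, none passing. Ifi47 had 326.6, 210.5 and 45.3 units in GH cells at 48 h, against 92.7, 101.2 and 13.2 units in control cells (1.12 ± 0.66, adjusted p 0.873, with the block 0.112). Ifi35, Igtp and Iigp1 were the 3 members (10.3%) with every GH array above every control array, against 5.23% of all probe sets, and Ifi27l2a the 1 member with every GH array below, against 4.92%.

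The other decreases did not pass. Gbp2 had 1687, 1686.6 and 617 units in GH cells at 48 h, against 2275, 2407.8 and 1342.7 units in control cells, lower in 3 of 3 experiments (-0.67 ± 0.52, adjusted p 0.929, with the block 0.0513). Ly6e had 3093.9, 3614.3 and 4111 units in GH cells, against 3852.1, 3067.6 and 5502.2 units in control cells, with experiment 2 going the other way (-0.17 ± 0.30). Of the 6 measured GTPases 5 had higher values with GH, Gbp2 being the exception, and none passed at 48 h in either fit. Of the 5 measured transcription factors and partners all had higher values, with a median of 0.54. Among them Nmi had every group mean below 105.6 units. A second Irf7 probe set, of the kind that can read related transcripts, had a log2 change of -0.08. Of the 10 antiviral effectors 8 had higher values, with a median of 0.19, none of the effectors passing. Isg15 had 840.8, 513.4 and 566.5 units in GH cells, against 427.4, 654.8 and 314 units in control cells, with experiment 2 going the other way (0.47 ± 0.44). Psme1, a subunit of the proteasome activator, and Ifit3 had log2 changes that round to 0.00.

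**Figure D5:**
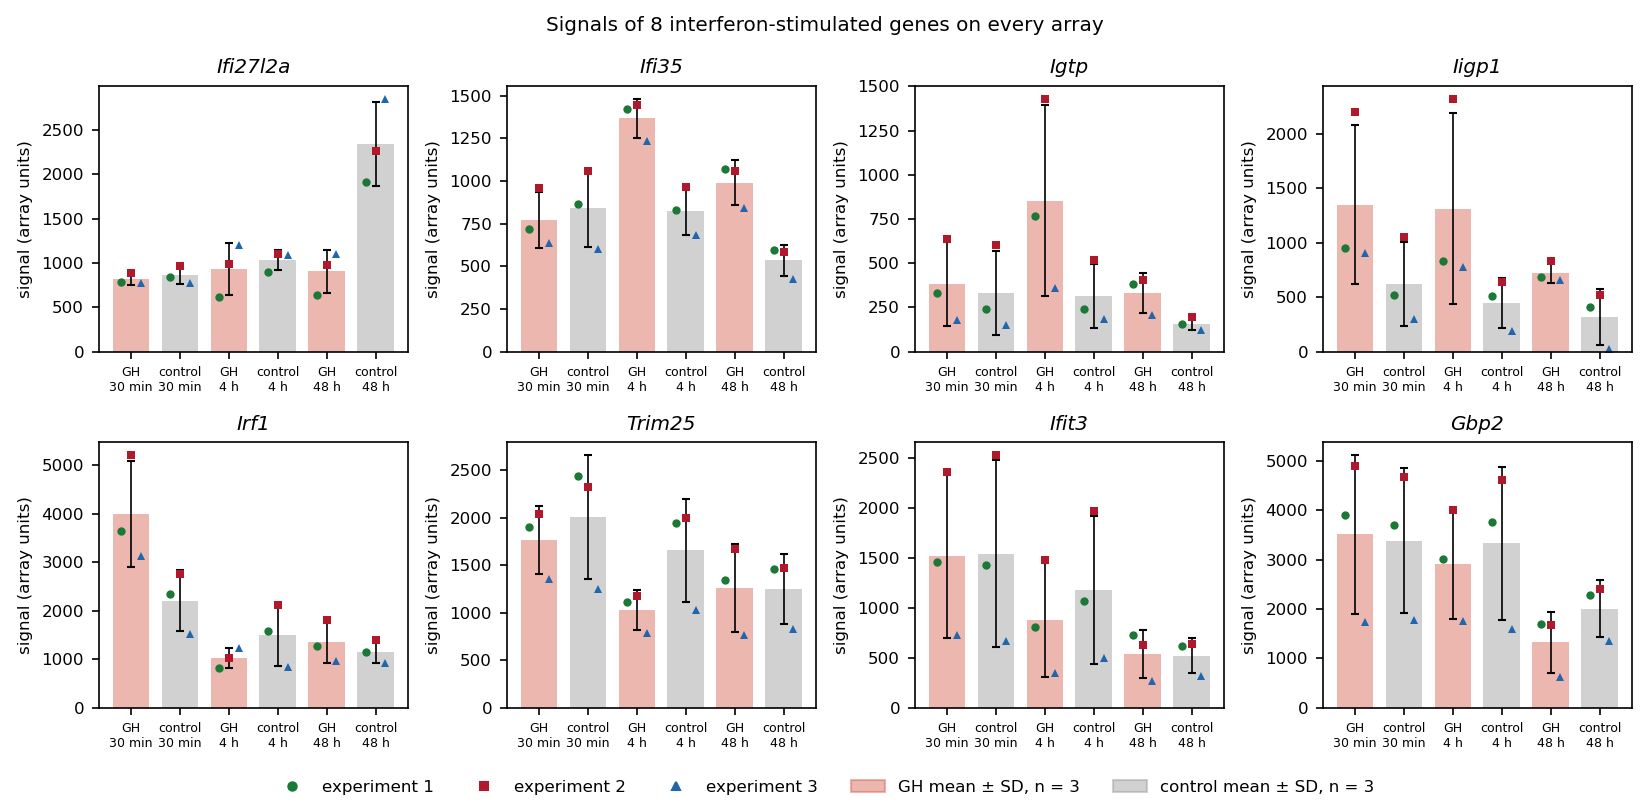
Signals of 8 members on every array, with GH left of its control at each time, bars for the mean of 3 arrays, error bars for the SD and points for experiments 1 to 3. Ifi27l2a is high only in control cells at 48 h, Ifi35 is higher with GH at 4 h and 48 h, and in the other panels the points of experiment 2 mostly lie above those of experiment 3.

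Whether the GH effect itself differed between times was tested as an interaction. No member passed in either fit (0 of 29 for each of the 3 differences). The differences were 4 h minus 30 min, 48 h minus 4 h and 48 h minus 30 min. In that order 0.0161%, 0.00805% and 0.0644% of all probe sets passed without the block, and 0.0725%, 0% and 0.177% with it. Without the block 2, 1 and 2 members had an unadjusted p below 0.05. They were 6.90%, 3.45% and 6.90% of the members, against 4.42%, 4.92% and 4.999% of all probe sets. With the block 7, 5 and 5 members did, or 24.1%, 17.2% and 17.2%, against 7.6%, 8.24% and 7.95% of all probe sets. For Ifi27l2a the GH effect at 48 h minus that at 30 min was -1.30 (adjusted p 0.409, with the block 0.0898). For Irf1 the effect at 4 h minus that at 30 min was -1.33 (adjusted p 0.999, with the block 0.31). In the blocked fit without the 3 arrays with conflicting labels it was -1.82 with an adjusted p of 0.0299, and Irf1 was the 1 member called there, against 0.105% of all probe sets. For Ifi27l2a, a call at 48 h and none earlier is therefore not shown to be a difference between times. Ifi35 was called at 4 h and at 48 h with the block, and no difference between times was shown for it.

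Outside the members, some genes of antigen processing were called at 48 h. Of 11 measured genes of antigen processing 3 rose at 48 h of GH with the block, against 0.692% of all probe sets called higher. None rose without it, against 0.338% called in either direction. The immunoproteasome subunit gene Psmb9 had 300, 523.2 and 549.4 units in GH cells, against 49, 235.8 and 29.6 units in control cells (2.20 ± 0.47, adjusted p by limma 0.0658, with the block 0.00396). Its control arrays of experiments 1 and 3 were below 105.6 units, so the size of this change rests partly on values at background. Tap1, a peptide transporter gene, had 847.1, 1199.4 and 654.5 units in GH cells, against 390.8, 501.3 and 290.1 units in control cells (1.13 ± 0.37, with the block 0.00669). Psmb8 had 2167.7, 2683.5 and 1498.2 units in GH cells, against 1397.1, 1577.6 and 647.8 units in control cells (0.85 ± 0.37, with the block 0.0197). All 3 were higher with GH in every experiment, and Psmb9 and Tap1 also without overlap. Without the 3 arrays with conflicting labels the blocked adjusted p-values were 0.0171, 0.00513 and 0.0347 for Psmb9, Tap1 and Psmb8. With all arrays, none of the 11 passed a test of the difference between times, in either fit. In the blocked fit without the 3 arrays with conflicting labels, Tap1 alone among the 11 passed such tests. Its GH effect at 48 h minus that at 4 h was 1.498 (adjusted p 0.0293). Its effect at 48 h minus that at 30 min was 1.306 (adjusted p 0.0476). No interferon (0 of 9), receptor, kinase or STAT (0 of 8), other interferon regulatory factor (0 of 4) or other interferon-induced gene (0 of 28) passed at any of the 3 times in either fit.

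Beside the 48 h changes, the macrophage and leukocyte marker sum was 2534 to 4294 units in GH cells, against 1758 to 3088 units in control cells. Of its 10 markers only 4 were higher with GH, against 53.5% of all probe sets, with a median log2 change of -0.17. Among them, Ptprc, Itgam, Mrc1 and Adgre1 were below 105.6 units throughout and Cd68 was above it throughout. The adipocyte marker sum was 66491 to 79902 units in GH cells, against 80665 to 85326 units in control cells, which did not overlap. Of these 8 markers 3 were higher with GH, with a median log2 change of -0.33. The preadipocyte and fibroblast sum was 13240 to 42907 units, against 20765 to 34708 units. Of these 8 markers 0 were higher with GH, with a median of -0.44. The part of these marker shifts in the members' changes was not tested. With 3 arrays a group, the precision of each GH effect is limited by their number.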

How the data were processed

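RNA of 3T3-F442A adipocytes had been hybridized to Affymetrix MG_U74Av2 arrays. The values deposited by the authors are linear signal intensities, 1 for each probe set of an array. The summary method, scaling and software are not given in the sources used here, but the 2% trimmed mean of 500.3 on all 18 arrays shows that the deposited intensity values were already scaled. No further normalization was applied. The members and all gene lists were chosen with earlier results of these data known.

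Of 12488 probe sets, the 66 manufacturer controls were left out of the tests. Gene symbols came from the platform table (10833 probe sets with 1 symbol, 396 with several, 1193 with none), and the brightest probe set with a single symbol stands for a gene. Signals were analysed as log2(signal + 25) in R 4.3.3 with limma 3.58.1 (lmFit and eBayes), all 6 groups in 1 model with 12 residual degrees of freedom, and Benjamini-Hochberg adjustment over 12422 probe sets. On this scale the changes of dim genes are smaller than the ratios of their signals. The code was tested on simulated data.

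Groups were taken from the titles. The titles name experiments 1, 2 and 3 without saying that these were separate cultures, and p-values then measure only the spread between these samples, which may be technical. The pairing was checked by taking the group means off. GH and control arrays of the same experiment then correlated at 0.151 to 0.457 across probe sets. At 48 h some arrays of different experiments did so too. GH of experiment 2 correlated at 0.213 with control of experiment 1, against 0.151 with its own control. GH of experiment 1 correlated at 0.124 with control of experiment 2, against 0.166 with its own. The check therefore does not separate experiments 1 and 2 at 48 h. The experiment was also fitted as a block, with the pairing taken from the titles (10 residual degrees of freedom). Alternatives were offsets of 5 and 100, quantile normalization, median centring, a filter on dim probe sets, fits on the compared groups alone, the mean of all probe sets of a gene, and fits without single arrays, experiments or the 3 arrays with conflicting labels. The blocked fit without those 3 arrays was added after the data were seen.

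Full values are given for members past the threshold in a GH or interaction comparison in either fit, for the 3 with the largest change each way at each time, for the 5 with the largest change between control times and for the 5 with the lowest p between experiments. Other members are given by count and range. Isg15, Ifi204, Cxcl10, Irf9, Ifnar2, Gbp7 and Ccl5 fall outside this rule and were chosen after their values were seen. Promoter windows are from RefSeq (GRCm38.p6), with chromosome 18 left out. In the windows searched 7 members had no entry, among them Iigp1, which lies on chromosome 18.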

Additional observations from a re-analysis of the deposited data

How the results depend on the processing

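The experiment numbers in the titles were taken to pair the arrays. The fit with the replicate block gave 0 called members for GH at 30 min, 2 at 4 h and 2 at 48 h. Without the block these counts were 0, 0 and 1. For control cells at 48 h against 30 min the block gave 4, against 1 without it. The block changed no other call of members. With the block and without the 3 arrays with conflicting labels, an alternative chosen after seeing the data, the counts were 3 at 4 h, 2 at 48 h and 5 for the control times. Without the block, the control time comparison gave 0 calls with an offset of 5, and in the fit on the compared groups alone and without the 3 arrays with conflicting labels both this comparison and GH at 48 h gave 0. Without those 3 arrays 22 members were higher at 4 h of GH, the median change was 0.18 at 4 h and 0.0039 at 48 h, and the F test between experiments called 20 members.

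With 1 array or 1 experiment left out, the calls were 0 to 1 for GH at 48 h, 0 to 0 for the control times and 0 to 26 between experiments, where the count was 15 without experiment 2 and 0 without experiment 3. Members higher with GH numbered 5 to 25 at 30 min, 8 to 22 at 4 h and 15 to 25 at 48 h, with medians of -0.29 to 0.39, -0.35 to 0.18 and 0.0039 to 0.41. The extremes at 30 min came without single arrays of experiments 2 or 3, which leaves their partner arrays unmatched. Members lower in control cells at 48 h than at 30 min numbered 27 to 28 when an array or experiment was left out, and 25 to 28 under the other alternatives. No called change of a member turned its direction, while the medians at 30 min and 4 h changed sign without single arrays.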
